A study of Mus musculus with 53 samples.

Results

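The cytosolic ribosomal protein genes were the rows of the count table named Rpl or Rps with a number, together with Rplp0, Rplp1, Rplp2 and Rpsa, and without the S6 kinases. Of 12372 genes in the table, 70 met this rule, 42 of the large ribosomal subunit and 28 of the small subunit. RNA of brainstem, cerebellum, cortex and striatum had been sequenced from male mice of 74 to 77 weeks (17.5 months), of which 8 were wild-type C57BL/6 and 6 were SCA3 mice. The SCA3 mice were hemizygous MJD84.2 animals, a model of spinocerebellar ataxia type 3 in which human ATXN3 with an expanded CAG repeat is driven by its own promoter throughout the body, beside the intact mouse Atxn3. With at most 1 library per mouse and region, the 14 mice gave 53 libraries: 8 wild-type and 6 SCA3 of brainstem, 7 and 6 of cerebellum and likewise of cortex, and 8 and 5 of striatum. The human transgene transcript was not analysed here. In bulk tissue, fewer cells of a type and less RNA per cell cannot be told apart.

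A cytosolic ribosome joins a small subunit, which reads the mRNA, to a large subunit, which forms the peptide bond, and each ribosomal protein is normally present once per ribosome, apart from the paired stalk proteins made by Rplp1 and Rplp2. Transcripts of these genes usually begin with an uninterrupted stretch of pyrimidines, the terminal oligopyrimidine (TOP) motif, through which the mTOR pathway and the RNA-binding protein Larp1 control their translation. Mouse genomes hold many processed pseudogenes of this family, so that short reads from one gene can align equally well elsewhere.

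The sequence around the annotated start of these genes was examined first, because the TOP motif is the feature the family is known to share. A RefSeq promoter window on GRCm38.p6, reaching from 250 bases before to 50 bases after the annotated start, was found for 51 of the 70 genes. Within 50 bases of the start on either side, an unbroken run of 10 or more C or T on the sense strand was present in 38 of these 51 genes (74.5%), against 1902 of the 9423 other genes of the table with a window (20.2%) and 20.6% of all 27025 genes with one. The letters CCGGAA, the core recognised by ETS factors, were found on either strand of the whole window in 29 of the 51 genes (56.9%) and in 30.2% of the other genes of the table, and AAGATGG, the core of the YY1 motif, in 9 (17.6%) and 8.45%. GGGCGG, the core of the SP1 motif, was in 33 of the 51 windows (64.7%), with 70.4% among the other genes. A match is a description of the letters and no evidence that a factor binds there. The following stretches of 30 bases are printed 5′ to 3′ with the longest pyrimidine run in capitals. Rpl7a held the longest run of the family, Rps10, Rps24 and Rpl39 were called by the combined genotype test below but not with the mouse as a block, Rpl31 varied most between regions, and Rpl7l1 and Rplp0 are shown as genes in which no run reached 10 bases.
Rpl7a, chr2:26910788-26910817, plus strand: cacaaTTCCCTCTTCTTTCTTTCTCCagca
Rps10, chr17:27635227-27635256, minus strand: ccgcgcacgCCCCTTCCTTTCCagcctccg
Rps24, chr14:24490710-24490739, plus strand: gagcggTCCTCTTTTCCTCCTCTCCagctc
Rpl39, chrX:37085173-37085202, minus strand: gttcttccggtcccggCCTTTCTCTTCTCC
Rpl31, chr1:39367824-39367853, plus strand: ctcgccacaCCTCTTCCTCCTCgcctcccc
Rpl7l1, chr17:46782671-46782700, minus strand: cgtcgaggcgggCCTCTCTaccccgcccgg
Rplp0, chr5:115559466-115559495, plus strand: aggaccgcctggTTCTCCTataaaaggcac
The runs of Rpl7a (21 bases) and Rps10 (13 bases) spanned the annotated start itself. Those of Rps24 (19 bases, positions -37 to -19) and Rpl31 (13 bases, -18 to -6) lay before it. That of Rpl39 (14 bases, positions 37 to 50) lay after it and reached the end of the window, so the run may be longer. Rpl7l1 and Rplp0 held at most 7 pyrimidines in a row.

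The 70 genes took only a small share of the counts. The share lay between 0.301% and 0.453% of a library over all 53 libraries, with library totals between 31.7 and 76.7 M counts. Only uniquely aligned reads had been counted, and the annotated transcripts give a rough measure of how much of each gene such reads can see. The measure took exact matches of single windows, and left out read pairs, mismatches and copies outside the annotation. For a median of 21.3% of the 125-base windows of the longest coding transcript, the same 125 bases also occurred in a transcript of another gene, and 9 of the 69 genes with a coding transcript had no such window. Levels per length, in CPM (counts scaled to 1 M of the TMM-adjusted library total) per kilobase of that transcript over the 30 wild-type libraries, ran from 2.84 for Rpl5 to 428.7 for Rplp1. Across the 69 genes this level had a Spearman correlation of -0.53 with the shared percentage, given as a description of genes that share libraries. The 16 genes with at least 50% of windows shared had a median of 11.9 CPM per kilobase, and the 20 genes under 10% a median of 107. The order of levels between these genes therefore cannot be read as an order of transcript number, whereas the comparisons below set each gene against itself.

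Among the highest levels per length were those of Rplp1 (428.7 CPM per kilobase), a stalk protein that helps recruit elongation factors, Rps15 (321), Rpl4 (275) and Rpl8 (191). In Rpl8 no window was shared, and in Rps15 and Rpl4 less than 4% were (3.57% and 1.84%). The lowest were Rpl5 (2.84), which carries 5S RNA into the large subunit, Rpl28 (3.57), Rpl9 (3.65), Rpl17 (3.87) and Rpl12 (5.22), with 46.5% of windows shared in Rpl5 and 5.96% in Rpl9. Per kilobase of all exons joined, the levels of Rpl5, Rpl28 and Rpl12 were 1.48, 2.14 and 1.80 CPM, and the 5 highest genes were the same, whereas 3 of the 5 lowest were, without Rpl9 and Rpl17. All 70 genes had at least 91 counts in every library. In 19 of them another annotated gene overlapped the locus, and without strand information the reads of both cannot be told apart. Among the genes named here these were Rpl5, Rpl7l1, Rpl22l1, Rpl23a, Rpl28, Rpl31, Rpl32, Rps2, Rps4l, Rps10 and Rps27a. Some standard ribosomal protein genes, such as Rpl24, Rpl26, Rpl30, Rps13, Rps23 and Rps27, were not analysed here.

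**Figure D1:**
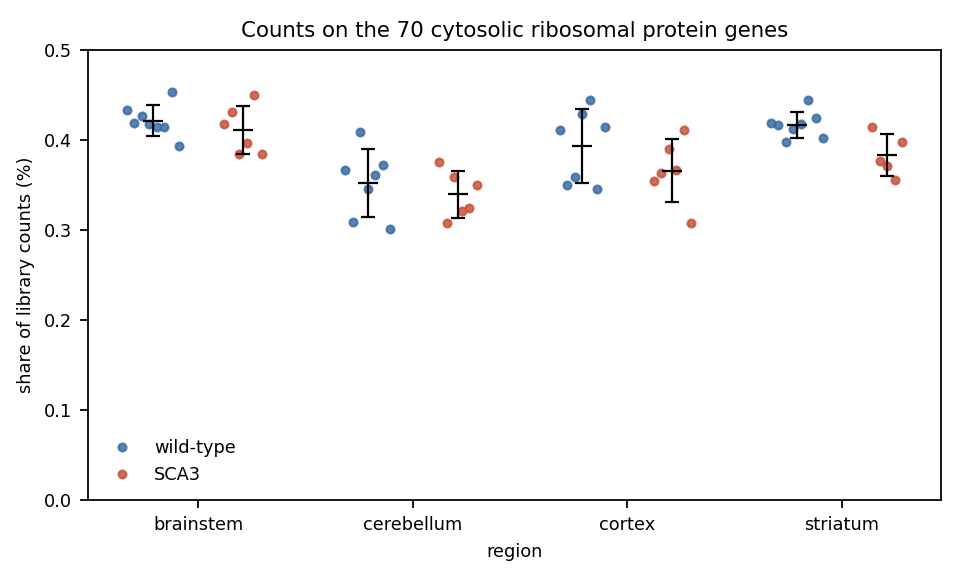
Share of each library's counts that fell on the 70 genes (percent, vertical axis) by region and genotype, with 1 point per library and the mean ± SD in black. The cerebellar means lie lowest, with libraries that overlap those of the other regions, and in every region the SCA3 mean lies below the wild-type mean with overlapping libraries.

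Regional levels were compared first, in wild-type mice. The family as a whole was lowest in cerebellum. The wild-type libraries gave 0.422 ± 0.0172% of counts in brainstem (SD, n = 8), 0.417 ± 0.0140% in striatum (n = 8), 0.394 ± 0.0409% in cortex (n = 7) and 0.352 ± 0.0377% in cerebellum (n = 7). The cerebellar libraries ran from 0.301% to 0.409% and overlapped those of each other region. The mean RNA integrity number (RIN) of the wild-type libraries rose in the same order, from 7.24 in brainstem to 7.475 in striatum, 7.83 in cortex and 7.84 in cerebellum. Its part in these shares was not tested. Each region was then set against the mean of the other 3, gene by gene, in an edgeR likelihood ratio test over the whole table, and a gene was called at a false discovery rate (FDR, Benjamini-Hochberg over 12372 genes) below 0.05. Region labels were checked by marker genes. The summed level of 6 cerebellar granule and Purkinje cell markers was 4395 to 6146 CPM in wild-type cerebellum and at most 335 CPM in the other wild-type libraries. Striatal projection neuron markers (12 genes) were 2962 to 11611 CPM in wild-type striatum and at most 3856 CPM elsewhere, and cortical glutamatergic neuron markers (7 genes) 579 to 2209 CPM in wild-type cortex, overlapping cerebellum (544 to 794 CPM) and striatum (143 to 893 CPM). Of 11 brainstem markers only 2 were in the table.

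In cerebellum, 41 of the 70 genes were lower than in the other regions and 6 were higher, while over all genes 38.4% were called lower and 35.3% higher. The median log2 difference of the 70 genes was -0.20, against -0.02 over all genes. The lower genes comprised 22 of 42 large-subunit genes and 19 of 28 small-subunit genes. With library totals in place of TMM factors, 30 were lower and 11 higher, and with RIN as a covariate 42 were lower and 6 higher. Markers of other cell types also differed between wild-type regions. In cerebellum all 12 mature oligodendrocyte markers and all 10 microglia markers were lower (medians -1.01 and -1.08), and in brainstem (1.40 and 0.35) and striatum (0.61 and 0.53) all were higher. In cortex the 12 oligodendrocyte markers were lower (-1.05) and 5 of 10 microglia markers higher (0.19). Of 13 thalamus markers, 7 were higher and 1 lower in striatum (median 0.97), where single wild-type libraries summed to 396 to 3815 CPM, and 8 were lower in cortex (median -1.08). Their part in the regional differences of the ribosomal protein genes was not tested. The largest differences downward were those of Rpl31, Rplp1 and Rps2. Rpl31, a protein at the rim of the peptide exit tunnel, had 4.79 ± 0.809 CPM (SD, n = 7) in cerebellum and 11.3 ± 4.06 CPM (SD, n = 8) in striatum, a log2 difference of cerebellum from the other regions of -0.86 ± 0.14 (SE, FDR = 1.93e-08). The stalk gene Rplp1 lay between 109.9 and 177 CPM (median 144) in cerebellum and between 231 and 306 CPM (median 259.7) in striatum, without overlap. Its log2 difference in cerebellum was -0.73 ± 0.08 (FDR = 9.41e-17). Rps2, at the mRNA entry of the small subunit, lay between 34.9 and 70.4 CPM (median 60.0) in cerebellum and between 50.1 and 131 CPM (median 101) in cortex, overlapping, with a difference of -0.65 ± 0.14 (FDR = 1.20e-05).

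The genes higher in cerebellum were led by Rpl23a, Rps27a and Rpl7l1. Rpl23a, which sits beside the exit tunnel, reached 5.31 ± 0.232 CPM (SD, n = 7) in cerebellum against 3.70 ± 0.327 CPM (SD, n = 8) in striatum (log2 difference from the other regions 0.32 ± 0.06, FDR = 8.13e-08). No cerebellar library of Rpl23a fell to the striatal range, which ended at 4.17 CPM. Rps27a, made as a fusion with ubiquitin, differed by 0.27 ± 0.07 (FDR = 0.00012). Rpl7l1, a paralog of Rpl7 linked to ribosome assembly, was between 49.0 and 53.8 CPM (median 51.3) in cerebellum, above every wild-type library of the other regions, of which the highest was 48.7 CPM.

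In striatum and brainstem more members were higher than lower. In striatum 23 genes were higher and 3 lower (27.8% and 27.2% over all genes), with a median log2 difference of 0.09. The higher genes were led by Rpl31 (0.80 ± 0.13, FDR = 3.84e-09), Rplp1 (0.48 ± 0.08, FDR = 4.27e-09) and Rps21 (0.38 ± 0.08, FDR = 1.24e-06), and the 3 lower genes were Rpl23a (-0.37 ± 0.06), Rps15a (-0.36 ± 0.09) and Rpl7l1 (-0.18 ± 0.04). In brainstem 25 genes were higher and 9 lower (34.1% and 36.0% over all genes), with a median of 0.07. All 9 lower genes were of the large subunit. Rps4l, a close relative of Rps4x, lay between 10.1 and 20.7 CPM (median 16.9) in brainstem (difference 0.64 ± 0.16, FDR = 5.24e-05), overlapping the other regions. Rps4l had no annotated coding transcript, so its share of windows found in other genes was not measured. Its locus also overlapped that of Tmtc1. Rpl14 was also higher, by 0.28 ± 0.05 (FDR = 2.14e-07). Downward the largest were Rpl31 (-0.45 ± 0.13), Rpl10a (-0.38 ± 0.08) and Rpl12 (-0.34 ± 0.08). Cortex held 13 higher and 4 lower genes (30.6% and 29.0% over all genes; 8 and 7 with library totals), with a median of 0.05 that turned to -0.01 with library totals. Rpl31 (0.51 ± 0.14), Rps2 (0.40 ± 0.14) and Rpl41 (0.39 ± 0.10) led the higher genes, and Rps27l (-0.25 ± 0.08), Rps27a (-0.23 ± 0.07) and Rps9 (-0.14 ± 0.06) the lower. The call of Rps9 was lost without mouse 7267058, 9082857 or 9083373 (FDR up to 0.17), and with RIN as a covariate, libraries of RIN 7 or above or wild-type libraries alone (FDR up to 0.061).

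**Figure D2:**
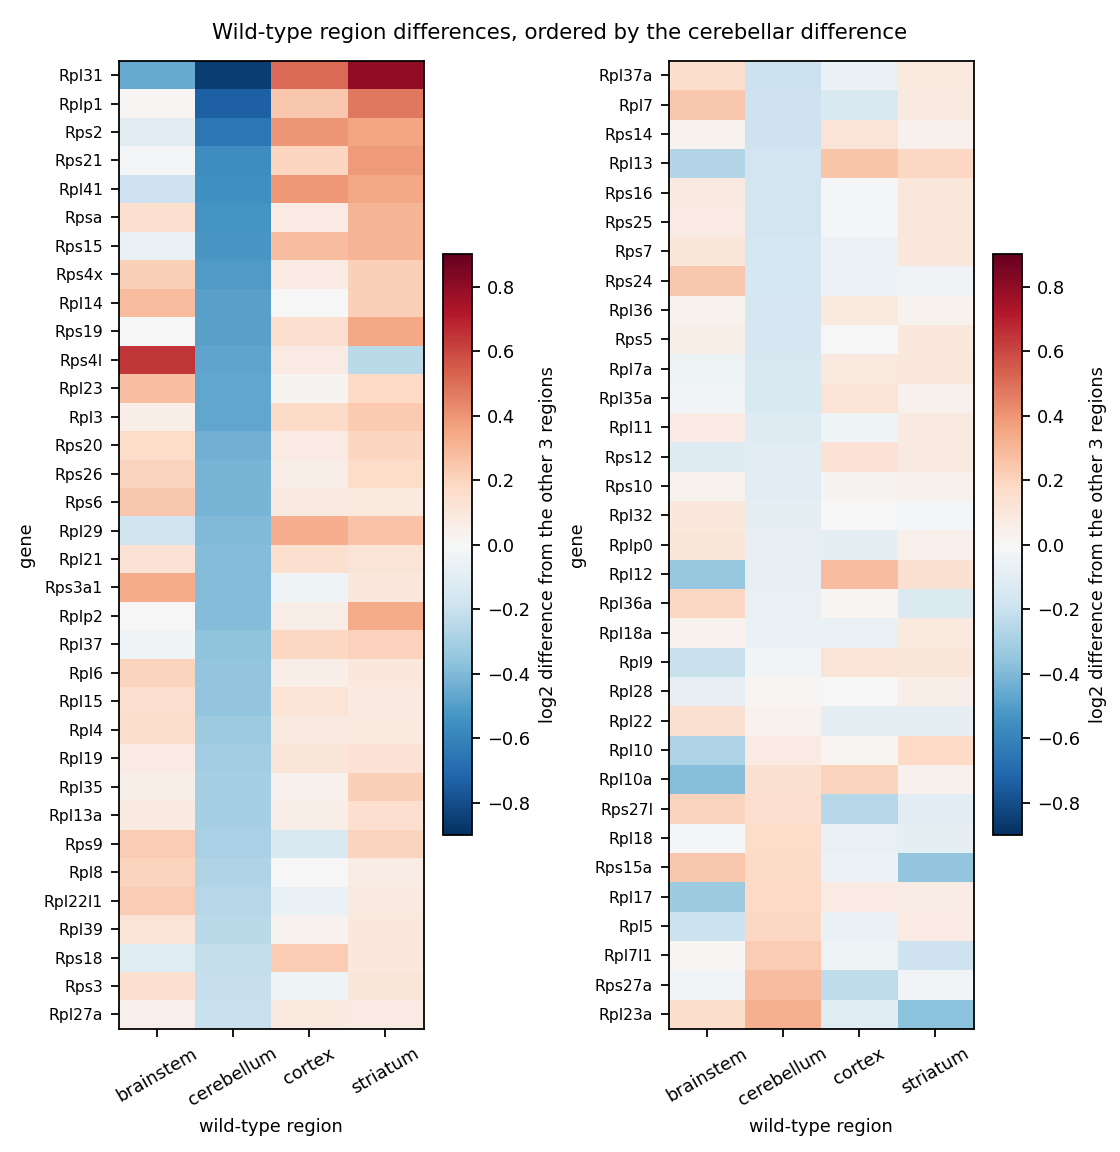
Log2 difference of each wild-type region from the mean of the other 3 (colour, blue lower and red higher) for 67 of the 70 genes, ordered from the lowest to the highest cerebellar difference down the first and then the second panel. Most genes are blue in cerebellum, from -0.86 for Rpl31 to 0.32 for Rpl23a at the end of the second panel.

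Paralog pairs were set side by side next. Rpl22, an RNA-binding protein of the large subunit, was close to level in cerebellum (0.03 ± 0.05, FDR = 0.53), whereas its paralog Rpl22l1 was lower there (-0.25 ± 0.08, FDR = 0.0024). Rpl7 was lower in cerebellum (-0.18 ± 0.05, FDR = 0.00032) and Rpl7l1 higher. Rps4x was 73.9 ± 9.26 CPM (SD, n = 7) in cerebellum and 108 ± 5.06 CPM (SD, n = 8) in brainstem, and Rps4l 9.34 ± 1.77 CPM (SD, n = 7) and 16.7 ± 3.27 CPM (SD, n = 8). Both were lower in cerebellum, by log2 differences of -0.51 and -0.48. Rpl36a was within -0.13 and 0.18 in all 4 contrasts and was called in brainstem only (FDR = 0.034). The difference between paralogs was not tested. For Rps4l, without an annotated coding transcript, the windows shared with Rps4x or other genes were not measured.

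The second question was whether expanded ataxin-3 changed these genes. Few single genes were called, and the differences were small and mostly downward. In SCA3 mice the median log2 fold change of the 70 genes was -0.05 in brainstem, -0.05 in cerebellum, -0.08 in cortex and -0.11 in striatum, while the median of all genes was 0.00 in each region. Within groups, the mean log2 level of the 70 genes varied between libraries with an SD of 0.0887. With single mice left out, the medians ran from -0.078 to -0.041 in brainstem and from -0.079 to -0.0087 in cerebellum. They ran from -0.098 to -0.052 in cortex and from -0.119 to -0.079 in striatum. Values were below 0 for 54, 56, 60 and 58 of the 70 genes in these regions, against 49.0%, 52.8%, 51.2% and 51.0% of all genes. Among the 20 genes with under 10% of windows shared, 18, 18, 19 and 19 were below 0. In 44 of the 70 genes (62.9%) the fold change was below 0 in all 4 regions, against 12.2% of all genes. In 4 genes, Rpl31, Rplp2 and Rps3a1 among them, it was above 0 in all 4 regions, against 1431 of the 12372 genes. That of Rps3a1 turned to -0.031 in brainstem without mouse 9083372 and to -0.050 in striatum without mouse 9083515. The regions came from the same mice, the genes of the family vary together between libraries as given below, and neither count was tested. Library numbers were lower for all wild-type than for all SCA3 libraries, so that any order of preparation cannot be told apart from genotype.

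By single genes, the test called 1 member in brainstem (1.92% of all genes were called), 0 in cerebellum (0.0647%), 0 in cortex (0.154%) and 1 in striatum (7.54%), both called members being lower in SCA3. The count at an unadjusted p below 0.05 was 7, 1, 10 and 12 of the 70 genes, against 13.3%, 1.66%, 4.07% and 23.2% of all genes. In cerebellum and cortex the quasi-likelihood test, DESeq2 and limma-voom also called 0.

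**Figure D3:**
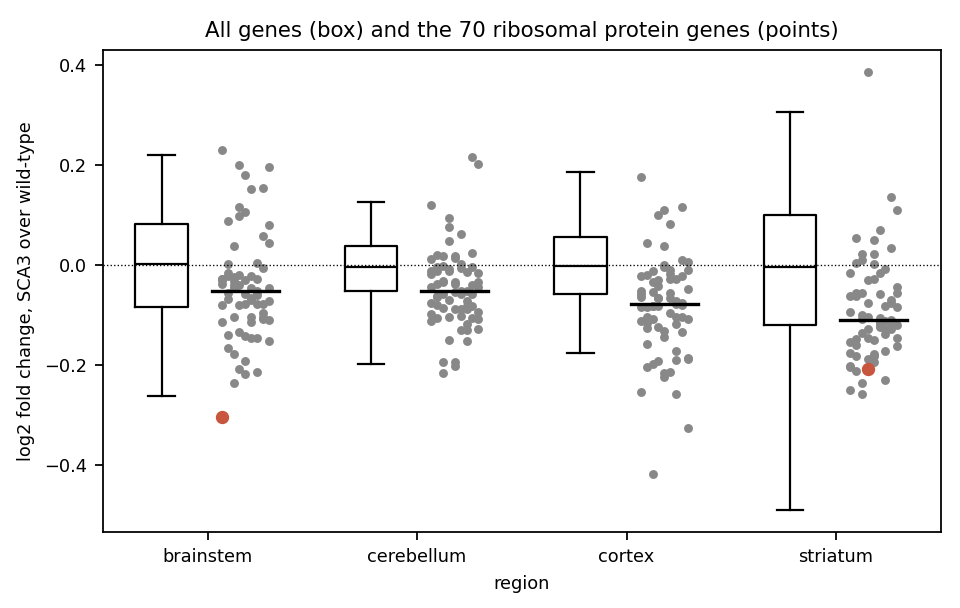
Log2 fold change of SCA3 over wild-type in each region for all genes (box with median and quartiles, whiskers at the 5th and 95th percentile) and for the 70 genes (points, bar at their median, larger red points at an FDR below 0.05). The members' bars lie at -0.05, -0.05, -0.08 and -0.11, below the median of all genes, and 1 point each is red in brainstem and striatum.

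In brainstem the gene called was Rps14, a protein of the small-subunit platform (chromosome 18, 60774596 to 60778546, GRCm38). Its level lay between 99.9 and 136 CPM (median 118) in wild-type and between 80.8 and 110.2 CPM (median 96.1) in SCA3 brainstem, so that the groups overlapped. The log2 fold change was -0.30 ± 0.08 (SE, FDR = 0.025). RIN, the RNA integrity number, moved with genotype here, from 6.3 to 7.6 in wild-type and 7.4 to 8.0 in SCA3, and with RIN as a covariate the fold change was -0.29 with an FDR of 0.071. The FDR of Rps14 was 0.087 with library totals in place of TMM factors and 0.15 with the brainstem libraries fitted alone with RIN. The call was also lost without mouse 9082853, 9082857, 9083513, 9083514 or 9083515, with an FDR of up to 0.099. Summed mature oligodendrocyte markers (12 genes) were 10786 to 22362 CPM in wild-type and 9788 to 16463 CPM in SCA3 brainstem, with 4 of 12 genes lower, and astrocyte markers (10 genes) 4266 to 8884 CPM and 3766 to 5290 CPM, with 4 of 10 lower. Microglia markers (10 genes) were 340 to 654 CPM and 384 to 496 CPM, all 10 with fold changes below 0 (median -0.14) and 1 of 10 lower by the test. Their part in the result was not tested. The next lower gene, Rpl39, a small protein at the exit tunnel, gave -0.24 ± 0.09 (FDR = 0.19). Upward, Rpl28 had the smallest p (0.23 ± 0.10, FDR = 0.28) and did not pass the threshold. In Rps24 the brainstem groups did not overlap, with wild-type between 94.4 and 105 CPM (median 97.4) and SCA3 between 83.6 and 91.1 CPM (median 88.2), although its log2 fold change of -0.17 ± 0.06 had an FDR of 0.19.

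In striatum the gene called was Rpl21, a large-subunit protein (chromosome 5, 146832890 to 146837032). The SCA3 libraries had 30.6, 31.1, 32.9, 33.4 and 33.7 CPM, and the wild-type libraries lay between 32.7 and 42.3 CPM (median 37.3). The groups overlapped at their edge, and the log2 fold change was -0.21 ± 0.07 (FDR = 0.039). Fitted on the striatal libraries alone, Rpl21 had a fold change of -0.21 with an FDR of 0.24, and with the thalamus marker score added as a covariate one of -0.12 with an FDR of 0.62. RIN was 6.0 to 9.0 in wild-type and 5.7 to 8.3 in SCA3 striatum. The call of Rpl21 was lost with only libraries of RIN 7 or above (FDR = 0.18) and with the striatal libraries fitted alone with RIN (FDR = 0.22), and kept with RIN as a covariate over all libraries (FDR = 0.03). Summed thalamus markers (13 genes) ran over 396 to 3815 CPM in wild-type and 383 to 778 CPM in SCA3 striatum, with 9 of 13 genes lower, and striatal projection neuron markers (12 genes) over 2962 to 11611 CPM and 7213 to 10751 CPM, with all 12 fold changes above 0 (median 0.50), 0 of 12 called by edgeR and 1 at an unadjusted p below 0.05. Oligodendrocyte markers spanned 6919 to 20142 CPM and 6368 to 9717 CPM, with 6 of 12 lower. Astrocyte markers (10 genes) spanned 4482 to 6291 CPM and 4574 to 5121 CPM, with 5 of 10 lower. The 2 brainstem markers in the table summed to 3.45 to 320.4 CPM in wild-type and 2.14 to 73.2 CPM in SCA3 striatum, with 1 of 2 lower. Beyond the fit with the thalamus score, the part of these cell types in the result was not tested. Without single mice, the call of Rpl21 was lost without mouse 7267054, 7267056, 7267058, 7267059, 9083372, 9083373, 9083514 or 9083515 (FDR up to 0.16). Rps14 followed with -0.25 ± 0.09 (FDR = 0.06), its SCA3 libraries at 89.4, 93.1, 96.5, 110.3 and 112 CPM against wild-type between 106 and 129 CPM (median 121). Upward, Rpl31 gave 0.39 ± 0.18 (FDR = 0.17) and Rpl17 0.11 ± 0.08 (FDR = 0.43). The value of Rpl31 was 0.07 (FDR = 0.93) with the striatal libraries alone and the thalamus marker score, 0.14 (FDR = 0.77) with libraries of RIN 7 or above, and 0.46 (FDR = 0.039) when the series of mouse numbers was a covariate. That of Rpl17 was 0.07 with libraries of RIN 7 or above. In Rpl32, named after its values were seen, the SCA3 libraries (83.8, 86.6, 92.2, 92.3 and 93.8 CPM) lay below all wild-type libraries, between 99.2 and 104 CPM (median 102), with a log2 fold change of -0.18 ± 0.07 and an FDR of 0.1.

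In cortex the smallest p-values downward were those of Rps14 (-0.25 ± 0.09, FDR = 0.53) and Rps10 (-0.26 ± 0.09, FDR = 0.55), and upward those of Rpl28 (0.18 ± 0.11) and Rps27a (0.11 ± 0.09). In cerebellum they were Rpl39 (-0.19 ± 0.09) and Rpl41 (-0.20 ± 0.12) downward and Rpl28 (0.12 ± 0.11) and Rps4l (0.20 ± 0.21) upward. All these values in cerebellum, and the upward values in cortex, had an FDR close to 1. Summed choroid plexus markers (4 genes) were 147 to 3313 CPM in wild-type and 1118 to 3040 CPM in SCA3 cerebellum, all 4 with fold changes above 0 (median 1.05). Endothelial markers (10 genes) were 265 to 329 CPM and 219 to 284 CPM there, all 10 below 0 (median -0.19), and oligodendrocyte markers 3507 to 5628 CPM and 3137 to 4843 CPM, with 8 of 12 below 0 (median -0.26). In cortex, 9 of 10 astrocyte markers (median -0.15) and all 4 choroid plexus markers (median -0.40) were below 0. No marker of these lists passed the edgeR threshold in either region, 2 choroid plexus and 4 oligodendrocyte markers having an unadjusted p below 0.05 in cerebellum and 2 astrocyte markers in cortex, and their part in the members' fold changes was not tested.

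The combined test asks whether genotype had an effect in any region. It called 4 of the 70 genes, against 4.73% of all genes, a similar share. They were Rps14 (FDR = 0.00058), Rps10 (FDR = 0.0065), Rpl39 (FDR = 0.0075) and Rps24 (FDR = 0.028). Rps10, Rps14 and Rps24 encode proteins of the small subunit, of which Rps10 and Rps24 are mutated in some families with Diamond-Blackfan anaemia. All 4 had fold changes below 0 in each region, of which that of Rps14 in cerebellum turned to 0.0064 with that region fitted alone and the thalamus marker score as a covariate. For Rps14 the log2 fold changes were -0.30, -0.04, -0.25 and -0.25 in brainstem, cerebellum, cortex and striatum, for Rps10 -0.21, -0.12, -0.26 and -0.23, for Rpl39 -0.24, -0.19, -0.20 and -0.26, and for Rps24 -0.17, -0.06, -0.16 and -0.16. Rpl39, with no shared window, had 23.3 ± 1.80 CPM (SD, n = 8) in wild-type and 19.5 ± 1.37 CPM (SD, n = 5) in SCA3 striatum, and Rps10 9.29 ± 0.611 CPM (SD, n = 7) and 7.77 ± 1.18 CPM (SD, n = 6) in cortex.

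The test joins several libraries of each mouse. With the mouse as a random replicate block in limma-voom, which allows for this pairing, Rps14 remained (FDR = 0.019) and Rps10 (0.051), Rpl39 (0.086) and Rps24 (0.12) did not. Rps24 was also lost with library totals in place of TMM factors (FDR = 0.094) and with libraries of RIN 7 or above (0.087). Rps14 stayed below 0.05 without each of the 14 mice in turn, Rps10 was lost without 9083515 (FDR = 0.072), Rpl39 without 9083514 (0.051), and Rps24 without each of 8 mice (7267054, 7267055, 7267056, 9083371, 9083372, 9083513, 9083514 and 9083515, up to 0.14). The test of region dependence, which asks whether the genotype effect differed between regions, called 0 of the 70 genes with edgeR, the quasi-likelihood test, DESeq2 and limma-voom (0.218% of all genes with edgeR), and 1 had an unadjusted p below 0.05.

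**Figure D4:**
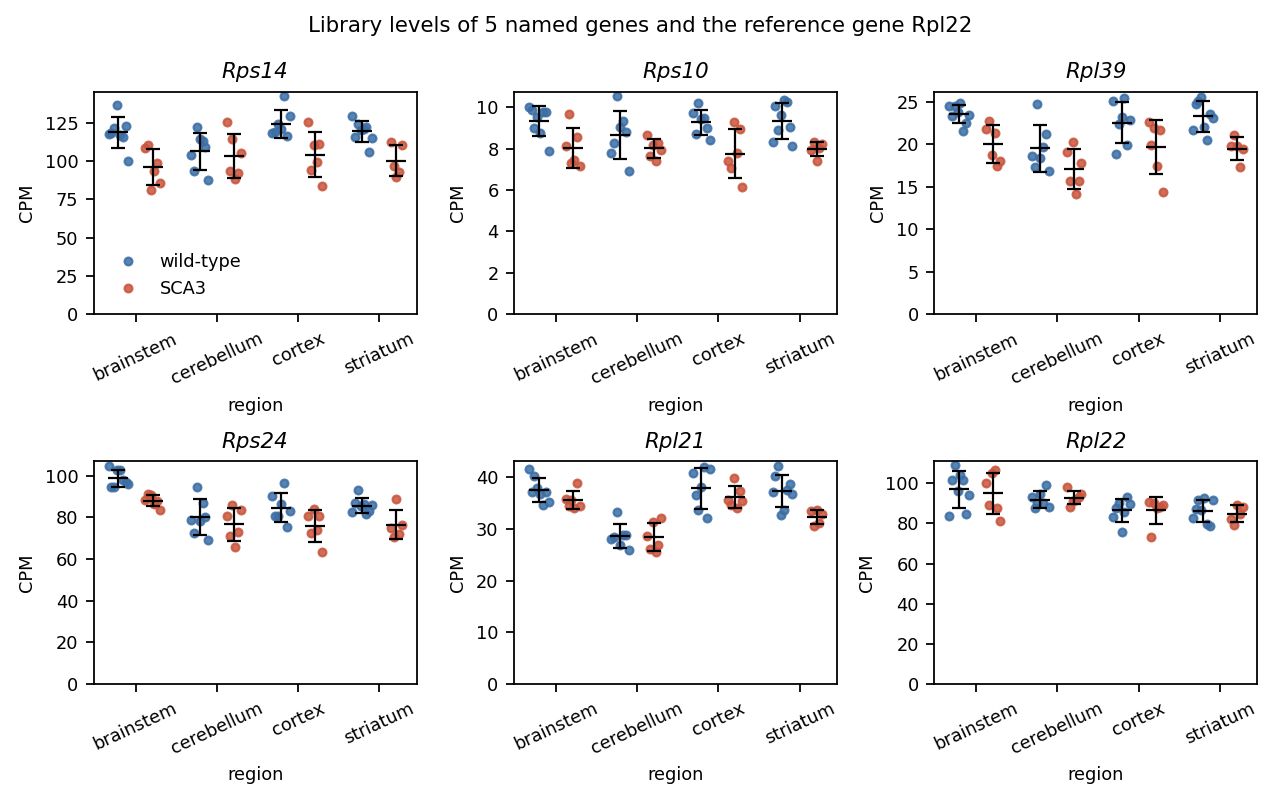
CPM of each library by region for Rps14, Rps10, Rpl39, Rps24, Rpl21 and the reference gene Rpl22, wild-type in blue and SCA3 in red, with the mean ± SD in black. Rps14 is lower in SCA3 brainstem with overlapping libraries, and Rpl22 lies at about the same level in both genotypes.

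Rpl22 was used by the study as a reference gene for qPCR in brain, together with Actb and Hprt, and its level in these libraries is therefore given for every region. Its primers of 20 bases are shown because they define the stretch measured.
mRpl22_ex3_fw1: aggagtcgtgaccatcgaac
mRpl22_ex3_rev1: tttggagaaaggcacctctg
Both matched exon 3 of its GENCODE reference transcript exactly, enclosing 67 bases at chr4:152330060-152330126 on GRCm38, and were found together in 7 of 8 annotated Rpl22 transcripts. No 125-base window of Rpl22 was shared with another gene. Rpl22 lay between 83.8 and 109 CPM (median 98.9) in wild-type and between 81.5 and 107 CPM (median 94.9) in SCA3 brainstem, and between 78.6 and 92.6 CPM (median 87.1) and between 79.0 and 89.3 CPM (median 84.8) in striatum. In cerebellum it lay between 87.9 and 99.2 CPM (median 90.2) and between 88.2 and 98.4 CPM (median 92.6), and in cortex between 75.8 and 93.2 CPM (median 87.8) and between 73.3 and 90.6 CPM (median 88.6). The log2 fold changes were -0.03 ± 0.06, 0.02 ± 0.06, 0.00 ± 0.06 and -0.03 ± 0.06 (SE) in brainstem, cerebellum, cortex and striatum, with FDRs of 0.9, 1, 1 and 0.84. The sign of the values in brainstem, cerebellum and cortex changed with the scaling or with single mice left out. Between wild-type regions Rpl22 was called in brainstem only (0.14 ± 0.05, FDR = 0.0059).

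In a few members nearly all of the spread within groups lay between mice. Rpl3, a core protein of the peptidyl transferase region, was 4.78 to 5.49 CPM in the brainstem, cerebellum and cortex of SCA3 mouse 9083513. In wild-type mice 7267055, 7267059 and 9083375 and SCA3 mice 7267056 and 9082853 it spanned 17.0 to 30.3 CPM, and in the other 8 mice 30.7 to 54.3 CPM. Low levels thus recurred in the regions of the same mouse and occurred in both genotypes. The libraries of a mouse had neighbouring numbers, so that mouse cannot be told apart from any order of preparation. Rplp0, the base of the ribosomal stalk and a common qPCR reference gene, was 64.8 to 72.5 CPM, 69.6 to 74.2 CPM and 66.7 to 71.7 CPM in mice 9082853, 9082857 and 9083513, against 85.7 to 128 CPM in the other 11. Rps3a1 was 33.8 to 43.2 CPM, 32.8 to 45.7 CPM and 32.6 to 43.6 CPM in wild-type mice 9083372 and 9083373 and SCA3 mouse 7267054, and 45.9 to 109.7 CPM elsewhere.

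After these levels had been seen, 12 mouse terms were added to the 8 groups of region and genotype and tested over the whole table by an edgeR likelihood ratio test. It called 17 of the 70 genes (24.3%), close to the 22.2% of all genes. Rpl3, Rps3a1 and Rplp0 stood 9th, 15th and 33rd among 12372 genes by p. Of the squared deviation of log2 CPM from the group means, 94.0% in Rpl3, 96.2% in Rps3a1 and 91.9% in Rplp0 lay between mice, against a median of 36.1% over all genes. The biological coefficient of variation, the spread that remains after counting error, was 0.441, 0.280 and 0.175 in these genes and 0.103 at the median of the 70. The cortical log2 fold change of Rpl3 was -0.42 ± 0.35 with all mice and -0.20 without 9083513. Without that mouse it went from -0.18 to 0.05 in brainstem and from -0.21 to -0.006 in cerebellum. In striatum it went from -0.11 to 0.02 without mouse 7267056. No genotype comparison of these 3 genes was called. The share of 125-base windows that also occur elsewhere was 74.9% for Rpl3, 33.3% for Rps3a1 and 13.3% for Rplp0, and its part in the differences between mice was not tested.

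**Figure D5:**
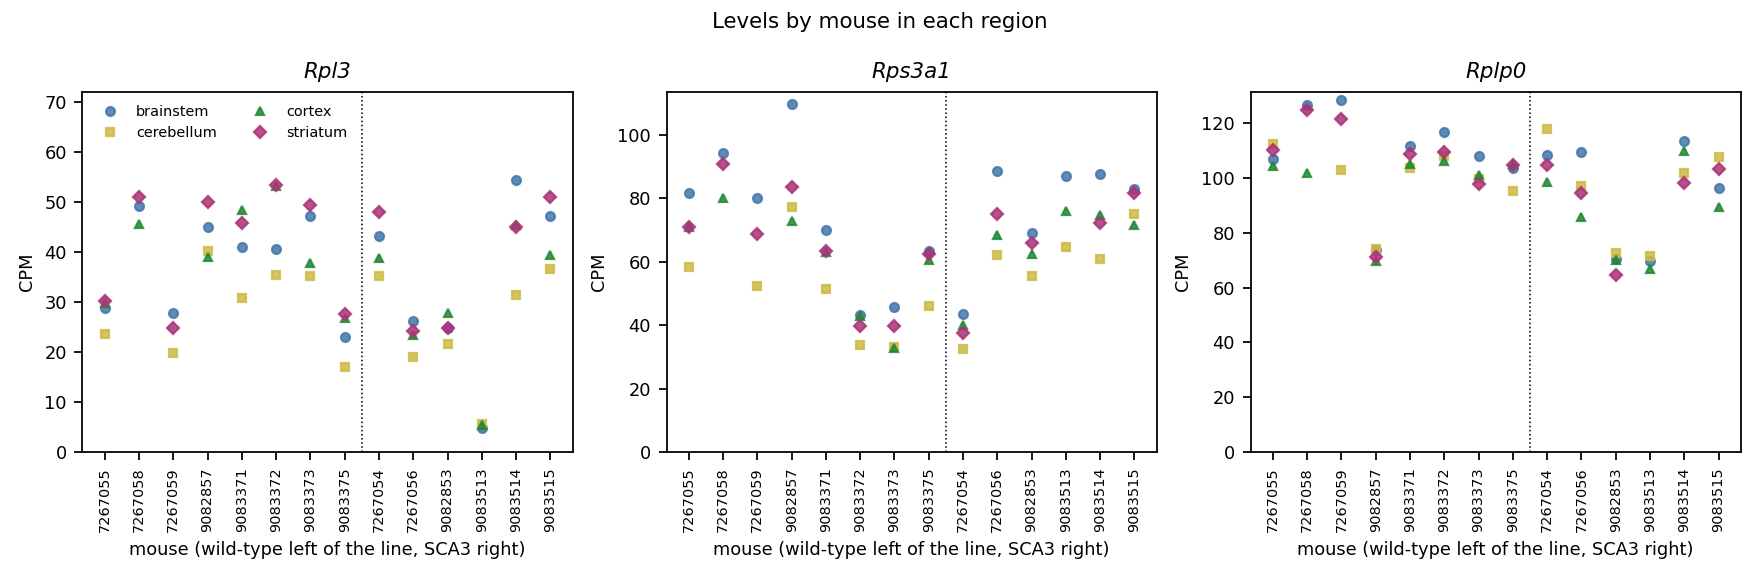
CPM of Rpl3, Rps3a1 and Rplp0 by mouse, with 1 symbol per region, wild-type mice left and SCA3 mice right of the dotted line. Rpl3 lies near 5 CPM in mouse 9083513 in each region sampled, and Rplp0 lies between 64.8 and 74.2 CPM in mice 9082853, 9082857 and 9083513.

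The members varied together between libraries. After the mean of each group was taken out, the average correlation between pairs of the 70 genes over the 53 libraries was 0.276, and 0.342 within the small subunit and 0.238 within the large subunit. It was 0.437 among the 20 genes with under 10% of windows shared. Pairs among all genes averaged 0.0018, the 76 mitochondrial ribosomal protein genes 0.159 and the 39 initiation factors 0.0900. Several lists of cell type markers reached higher averages, among them 0.894 for mature oligodendrocytes, 0.739 for microglia, 0.738 for endothelium and 0.556 for thalamus. Astrocyte markers (0.236) and cerebellar granule and Purkinje cell markers (0.256) lay below the 70 genes. These values describe libraries that share mice, depth and scaling, and were not tested.

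Other parts of the translation machinery were read from fixed lists, beside 1.92% of all genes called in brainstem and 7.54% in striatum. Of 76 mitochondrial ribosomal protein genes, 0 were called for SCA3 in any region by edgeR, with 2, 0, 1 and 14 at an unadjusted p below 0.05 in brainstem, cerebellum, cortex and striatum; the quasi-likelihood test and DESeq2 each called 1 in striatum. Their median log2 fold changes were 0.01, 0.02, -0.03 and -0.07. Of 39 initiation factors, 1 was lower in brainstem (Eif3e, -0.27 ± 0.08, FDR = 0.046) and 3 in striatum (2.56% and 7.69%, near the shares of all genes). In brainstem DESeq2 also called 1, and the quasi-likelihood test and limma-voom called 0 of these factors. In striatum Eif3i (-0.18 ± 0.06, FDR = 0.037) and Eif6 (-0.22 ± 0.07, FDR = 0.037), which keeps the subunits apart, had the smallest p. Of 15 elongation and termination factors, Eef1d was lower in striatum (-0.24 ± 0.06, FDR = 0.0082). Of 57 ribosome assembly genes, Utp20, which acts in processing of ribosomal RNA, was lower in brainstem (-0.23 ± 0.06, FDR = 0.0091). Of 20 mTOR pathway and TOP regulator genes, Rps6ka1, a kinase of ribosomal protein S6, was lower in striatum (-0.48 ± 0.11, FDR = 0.0023). Of 15 RNA polymerase I genes 0 were called by edgeR, the quasi-likelihood test, DESeq2 or limma-voom, with 2, 0, 1 and 3 at an unadjusted p below 0.05. Of the 4 ribosomal proteins under other symbols that were in the table, Fau, Gnb2l1 and Rpl36al among them, 0 were called by these tools, with 1 at an unadjusted p below 0.05, in striatum. In cerebellum the median difference of wild-type levels from the other regions was -0.04 for the mitochondrial ribosomal protein genes, 0.07 for the assembly genes and 0.27 for the RNA polymerase I genes, beside -0.20 for the cytosolic ribosomal protein genes.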

How the data were processed

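Raw counts per gene were deposited, which the authors made, per their methods, from poly-A selected, unstranded paired reads, aligned with STAR (2.3.0e) to GRCm38 keeping unique alignments, counted per RefSeq gene with HTSeq (0.6.1) without strand, and filtered to genes averaging above 4 CPM. Reads that fit several genes equally were lost, so genes with near-identical copies are under-counted, and unstranded counting mixes overlapping genes. Groups, mouse numbers and RIN came from the sample labels. Library totals were 31.7 to 76.7 M counts.

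Following the study's methods, edgeR 4.0.16 (R 4.3.3) with TMM factors fitted all 53 libraries with 8 groups of region and genotype, and likelihood ratio tests gave each contrast, with Benjamini-Hochberg adjustment over 12372 genes. The combined test covered genotype and its interactions with region, and the dependence test the interactions alone. SE are standard errors of log2 fold changes. The scripts were tested on simulated data. Alternatives were edgeR's quasi-likelihood test, DESeq2 1.42.0, limma-voom (limma 3.58.1) with and without the mouse as block, other size factors, filters, RIN, mouse number series, marker scores and left-out mice. The region-alone fit with RIN and the tests between mice were added after seeing the data.

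Most mice gave several regions, and the mouse numbers in the labels give this pairing. Deviations of the same mouse from the group means had a mean r of 0.0904 to 0.186 across the 6 pairs of regions (12 or 13 mice), with single mice as low as -0.39. Nothing in the labels sets the order of library preparation apart from genotype.

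The ribosomal protein genes and all lists were chosen with earlier results of these data known. Genes named were Rpl22, the genes called for genotype with the 2 of smallest p in each direction per region, the 3 largest differences in each direction per wild-type region, the 5 highest and 5 lowest levels per length, paralog pairs, and in other lists those called with the smallest p. Rpl3, Rps3a1, Rplp0, Rpl32 and the genes shown for their start sequence were named after their values had been seen. Start windows are from RefSeq (GRCm38.p6) and transcripts from GENCODE (GRCm38). A few genes that met these rules are not reported here.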

Additional observations from a re-analysis of the deposited data

Results flagged for a closer look

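Single libraries that stood apart from the rest of their group were looked for with Dixon's test in the named genes, in 120 groups of 15 genes. It marked 9 values of a gene in a library, where chance marks about 1 group in 20, and 32 of 560 groups over all 70 genes. In Rplp0, mouse 9082857 had 73.7 CPM in brainstem (nearest 104) and 69.6 in cortex (101), and mouse 9082853 had 64.8 in striatum (94.5). The marks in Rplp0 thus fell on 2 mice, and what sets these mice apart was not tested.

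Of the remaining marks, those of Rpl21 and Rpl31 in SCA3 brainstem fell on the same library. Those of Rpl21 in cerebellum and Rps4l in cortex fell on the mice already marked in Rplp0. SCA3 mouse 9083514 was high in brainstem for Rpl21 (38.9 CPM, nearest 35.8) and Rpl31 (8.14, nearest 6.78). Rpl21 was high in the cerebellum of wild-type mouse 9082857 (33.2 CPM, nearest 28.8), and Rpl31 low in the cortex of wild-type mouse 7267055 (4.68, nearest 9.68). The reference gene Rpl22 was low in the cortex of SCA3 mouse 7267056 (73.3 CPM, nearest 87.9). Rps4l was high in the cortex of SCA3 mouse 9082853 (19.3, nearest 11.2).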

How the results depend on the processing

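The number of ribosomal protein genes called for genotype depended on the processing. In brainstem it was 1, and 0 with library totals in place of TMM, with RIN as covariate and with the region fitted alone with RIN, 2 with the region alone (Rps14 and Rps24) and 3 with the thalamus marker score added (also Rpl39). In striatum it was 1, and 0 with libraries of RIN 7 or above, the region alone, the region with the thalamus score and the region with RIN, and 4 with the mouse number series as covariate (Rpl21, Rpl31, Rpl39 and Rps14). In the combined test it was 4, and 1 with the mouse as random replicate block. Leaving out each mouse in turn gave 0 to 1 in brainstem, 0 to 4 in striatum (4 without 9083375, 2 without 9082853 or 9082857), 2 to 6 in the combined test (2 without 9083514 or 9083515), 0 in cerebellum, cortex and dependence, and 30 to 36, 44 to 51, 13 to 19 and 23 to 27 between wild-type regions. With library totals the cortical wild-type median turned from 0.05 to -0.00757. Rpl22, near 0, changed sign in brainstem (0.000633 with library totals, 0.0129 with the thalamus score, 0.0905 with the region alone and RIN) and cortex (-0.00100 and -0.00423 in limma-voom without and with the block, -0.00428 with library totals, -2.82e-06 with the thalamus score), and without single mice ranged from -0.0651 to 0.0121 in brainstem, -0.00154 to 0.0371 in cerebellum and -0.0262 to 0.0435 in cortex. The cause was not tested. The block changed no other count of calls by over 1.5 times (1, 0, 0 and 1 for genotype by region; 35, 49, 20 and 29 between wild-type regions, and 37, 54, 16 and 31 with the mouse as fixed block). The 17 genes called between mice were 14 with the quasi-likelihood test, 16 with RLE size factors and 15 with library totals. Of the 242 counts and medians recomputed under other settings, 230 were taken as unchanged. A count was so if equal or within 1.5 times. A median was so if it kept its sign and moved by less than 0.0887, the SD between libraries of the members' mean. That width is above the size of the genotype medians in brainstem, cerebellum and cortex (-0.05, -0.05 and -0.08), so it cannot show that those medians hold.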
